A study of Mus musculus with 45 samples.

Results

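The glial identity genes are 38 genes that mark or specify the astrocytes, Bergmann glia and oligodendrocytes of the brain. They were chosen by name and were looked up in 3 lists of genomic sites that Capicua (CIC), a repressor of transcription, occupied in cerebellum of mice, among 21938 protein-coding genes in all. A gene was counted as having a CIC peak when a peak summit, the base with the strongest signal of a peak, lay inside its gene body or within 5 kb upstream of it. In the wild-type (WT) list 3 of the 38 genes had a peak, beside 16.4% of all protein-coding genes. In the list of mice with expanded Atxn1 2 had one, beside 6.96%, and in the list of mice whose expanded Atxn1 carries 2 more substitutions 0 had one, beside 3.77%. All of the genes with a peak were nuclear factor I genes, and all of their summits lay inside the gene bodies, outside exons of the basic gene annotation.

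The CIC sites were mapped by CUT&RUN, in which an antibody holds a nuclease at the protein of interest so that the DNA beneath it is cut out and sequenced. Cerebellar nuclei of 15 C57BL/6 mice, all 10 weeks old, were each divided over 3 antibodies, which gave 45 samples. WT mice (n = 4) were set beside Atxn1_154Q/2Q mice (154Q, n = 4), in which 1 Atxn1 allele carries an expanded polyglutamine tract and the other does not. In Atxn1_154Q[V591A;S602D]/2Q mice (154Q[V591A;S602D], n = 3) the expanded allele also carries substitutions V591A and S602D, made to prevent ATXN1 from binding CIC. The negative control was the Engrailed1-Cre;Cicfl/fl mouse (CIC KO, n = 4), which has Atxn1 alleles that the labels do not describe as altered and lacks Cic in cells of the Engrailed1 lineage. The authors describe Cic expression as ablated across the whole cerebellum of this control. Whether cells outside that lineage keep Cic was not measured here. The lists were made after the libraries of each genotype had been merged, so each genotype was 1 list without replicates, no SD exists and no difference between lists was tested. All 3 lists share the CIC KO control.

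CIC is a DNA-binding repressor that recognises a short octamer through its HMG box, works together with ATXN1, and is best known for holding down genes that respond to receptor tyrosine kinase signalling. Glia arise from neural progenitors under the control of SOX, nuclear factor I, Notch-dependent HES and ID proteins, and the oligodendrocyte lineage is set by OLIG, SOX and NKX factors before myelin genes are switched on. In the forebrain, loss of CIC is known to favour oligodendrocyte progenitors. In the cerebellum the dominant cell is the granule neuron, and Bergmann glia, astrocytes and oligodendrocytes are minorities. Because nuclei of all cells were pooled, a site occupied in few nuclei and a site occupied weakly in many cannot be told apart, and the share of glial nuclei was not measured.

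The sequences that carry the result are those beneath the summits in the nuclear factor I genes. They are given for build GRCm38, on the plus strand, 5′ to 3′, as 101 bases centred on the summit, with the summit base in capitals. The first pair below shows how closely the 154Q and WT summits of Nfib lay together, since the windows overlap. For Nfix the whole peak of 254 bases is given instead, with the CIC octamer in capitals.
Nfib in 154Q, chr4:82447342-82447442: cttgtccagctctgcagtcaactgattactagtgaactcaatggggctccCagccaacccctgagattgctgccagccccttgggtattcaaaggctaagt
Nfib in WT, chr4:82447383-82447483: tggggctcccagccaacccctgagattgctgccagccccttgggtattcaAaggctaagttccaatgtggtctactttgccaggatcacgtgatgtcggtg
Nfib in WT, second summit, chr4:82513105-82513205: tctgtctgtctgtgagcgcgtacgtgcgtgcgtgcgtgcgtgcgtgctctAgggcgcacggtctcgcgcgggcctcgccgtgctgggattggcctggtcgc
Nfia in WT, chr4:97911109-97911209: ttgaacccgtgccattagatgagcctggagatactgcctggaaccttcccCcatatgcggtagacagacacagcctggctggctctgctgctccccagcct
Nfia in 154Q, chr4:97910937-97911037: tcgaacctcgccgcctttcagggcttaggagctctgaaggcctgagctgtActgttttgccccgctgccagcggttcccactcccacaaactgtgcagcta
Nfix in WT, whole peak, chr8:84770324-84770577: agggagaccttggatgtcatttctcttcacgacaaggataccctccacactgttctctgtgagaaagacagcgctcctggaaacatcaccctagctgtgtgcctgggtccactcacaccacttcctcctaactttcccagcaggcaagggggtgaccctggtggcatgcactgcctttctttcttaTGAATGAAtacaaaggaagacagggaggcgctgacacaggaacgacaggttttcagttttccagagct

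Set against the genome, the glial genes had a peak in WT in 7.89% of cases (3 of 38, 95% exact binomial interval 1.66 to 21.4%), whereas 16.4% of all protein-coding genes had one (3588 of 21938). For 154Q the share was 5.26% (2 of 38, interval 0.644 to 17.7%) beside 6.96% of all genes (1526). In 154Q[V591A;S602D] it was 0 of 38, which allows a share of up to 9.25% by the same interval, beside 3.77% of all genes (827). The genome-wide share lay inside the interval of the glial genes in each list, so the counts did not separate the glial genes from other genes in the gene window. The intervals cover the number of genes counted and carry no error between animals.

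Start sites here are those of the GENCODE basic transcript set unless said otherwise. Within 1 kb of such a start site, 0 of the 38 genes had a summit in any of the lists. Of all protein-coding genes, a WT summit was found there for 11.7% (2577 genes), a 154Q summit for 4.88% (1070) and a 154Q[V591A;S602D] summit for 2.82% (618). The upper limit of 9.25% for 0 of 38 lay under the WT share of 11.7% and above the shares in the other lists. This changed when the start sites of all annotated transcripts were used, an alternative added after the data had been seen. Nfia then had a summit within 1 kb in WT and in 154Q, which made 1 of 38 in each (2.63%, interval 0.0666 to 13.8%), and 154Q[V591A;S602D] stayed at 0. Of all protein-coding genes 12.5%, 5.17% and 2.97% then had one, so the WT share lay inside the interval. Across the genome the share of genes with a summit near the start moved with the GC content of the start region. In WT the share of all genes with a summit within 1 kb climbed from 3.48% to 8.83%, 15.6% and 19.6% over 4 classes of rising GC content of the start region (300 bases), and 7, 8, 8 and 15 glial genes fell into these classes. The median GC content of the start region was 57.5% for the glial genes, 55.0% for all genes and 61.0% for genes with a WT summit within 1 kb. By role it was 65.3% for the glial factors, 65.7% for the oligodendrocyte lineage genes, 64.7% for the myelin genes and 53.3% for the 15 astrocyte and Bergmann glia genes. The part of GC content in these counts was not tested.

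**Figure D1:**
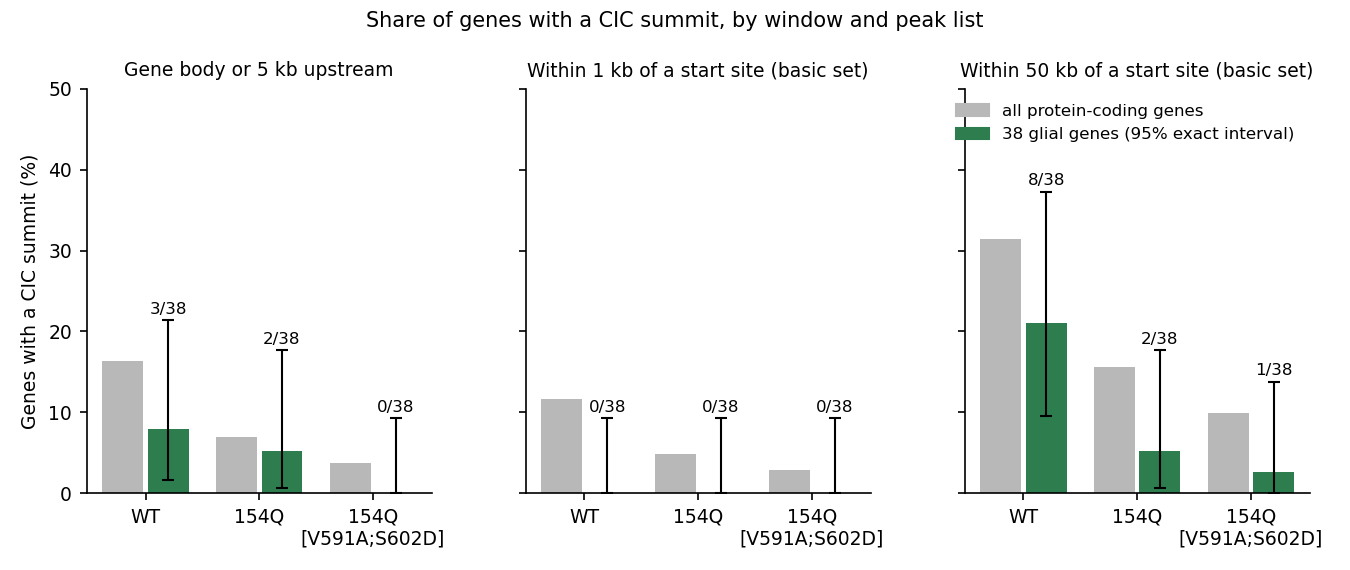
Share of genes with a CIC summit (y axis, percent) in each peak list (x axis) for 3 windows around genes and start sites of the basic set, with grey bars for all 21938 protein-coding genes, green bars for the 38 glial genes and lines for the 95% exact binomial interval. The glial genes show 3, 2 and 0 genes in the gene window, 0 in every list within 1 kb of a start site, and 8, 2 and 1 within 50 kb.

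The transcription factors of glial progenitors and astroglia held every member summit. These are Nfia, Nfib and Nfix, which encode nuclear factor I proteins that switch progenitors towards astroglia and also act in maturing granule neurons, Sox2 and Sox9, which maintain progenitors and glial fate, Hes1 and Hes5, which carry out Notch signalling, and Id3, an inhibitor of basic helix-loop-helix factors. Of these 8, 3 had a WT peak (interval 8.52 to 75.5%), beside 16.4% of all genes, and 2 had a peak in 154Q (3.19 to 65.1%), beside 6.96%. The 154Q[V591A;S602D] list had 0, beside 3.77%. Sox2, Sox9, Hes1, Hes5 and Id3 had none in any list. Hes5 had a WT summit 2.23 kb from its start site, just outside its window. The nearest WT summit to Sox9 was 391 kb away, with a −log10 q of 3.98 and no start site of another protein-coding gene nearer to it. For Sox2 and Hes1 the distances were 850 and 1360 kb.

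Nfib (chr4:82290173-82705750, minus strand) held the member summit with the highest −log10 q. That 154Q summit, at position 82447392, had a value of 11.6 and ranked 246 of the 1690 peaks in that list. The WT list had a summit 41 bp away at 82447433, 57.9 kb downstream of the nearest start site of Nfib (51.9 kb over all annotated transcripts), with a −log10 q of 2.21 and rank 3272 of 4588. At this WT summit the fold enrichment over the control was 2.9, which is also the median of the WT list, and 21 fragments (95% exact Poisson interval 13.0 to 32.1, counting error only) were piled up over a background of 6.59. The q-values of different lists depend on the depth of each merged library, which the lists do not give for 154Q, so the higher value in 154Q is a description of 2 lists and not of binding strength.

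A second Nfib peak was listed in WT, at chr4:82513111-82513331, with its summit at 82513155. It lay 7.38 kb upstream of the nearest start site but inside the gene body, outside every annotated exon. Its fold enrichment was 3.38, its −log10 q 6.81 and its rank 1312 of 4588, and 38 fragments (26.9 to 52.2) lay over a background of 10.5. Of its bases, 29.0% were repeat-masked, and the GC content beneath the summit was 70.3%, the highest of the 6 member summits. The nearest 154Q summit was the one described above, 65.8 kb away.

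Nfia (chr4:97772734-98118874, plus strand) held a weak site in WT and in 154Q. The WT peak at chr4:97910974-97911159 had its summit at 97911159, the last base of the peak, 133 kb from the nearest start site of the basic set, with a fold enrichment of 2.56, a −log10 q of 1.79 and rank 3639 of 4588. There 24 fragments (15.4 to 35.7) lay over a background of 8.77. The 154Q summit at 97910987 lay 172 bp away within the same WT peak and had a −log10 q of 1.44, rank 1457 of 1690. Among all annotated transcripts, Nfia-206, a processed transcript that is not in the basic set, starts at 97911033 between these summits. The 154Q summit lay 46 bp before this start and the WT summit 126 bp after it, in an exon. The WT summit closest to a start site of Nfia in the basic set was another one, 128 kb away outside its window and nearer to the start of E130114P18Rik.

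Nfix (chr8:84699876-84800344, minus strand) had a peak in the WT list and in neither of the others, which are shorter (4588 peaks against 1690 and 918). Among the 918 top-ranked peaks of each list, Nfix had none, WT held 0 glial genes (beside 4.36% of all genes) and 154Q held 1, Nfib (beside 4.22%). The peak at chr8:84770324-84770577 had its summit at 84770566, 2.83 kb downstream of the nearest start site, with a fold enrichment of 3.16, a −log10 q of 3.18 and rank 2635 of 4588. There 23 fragments (14.6 to 34.5) lay over a background of 6.59. The nearest 154Q summit was 199 kb away. The nearest summit from 154Q[V591A;S602D] mice was 133 kb from this site, 1620 kb from the Nfia site and 2820 kb or more from the Nfib sites. At the lowest background, which is that of Nfix and of the first Nfib summit, the WT list held no summit of fewer than 19 fragments, so the 23 and 21 fragments at these summits were close to the fewest that were called. The corresponding count for 154Q[V591A;S602D] was 18.

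**Figure D2:**
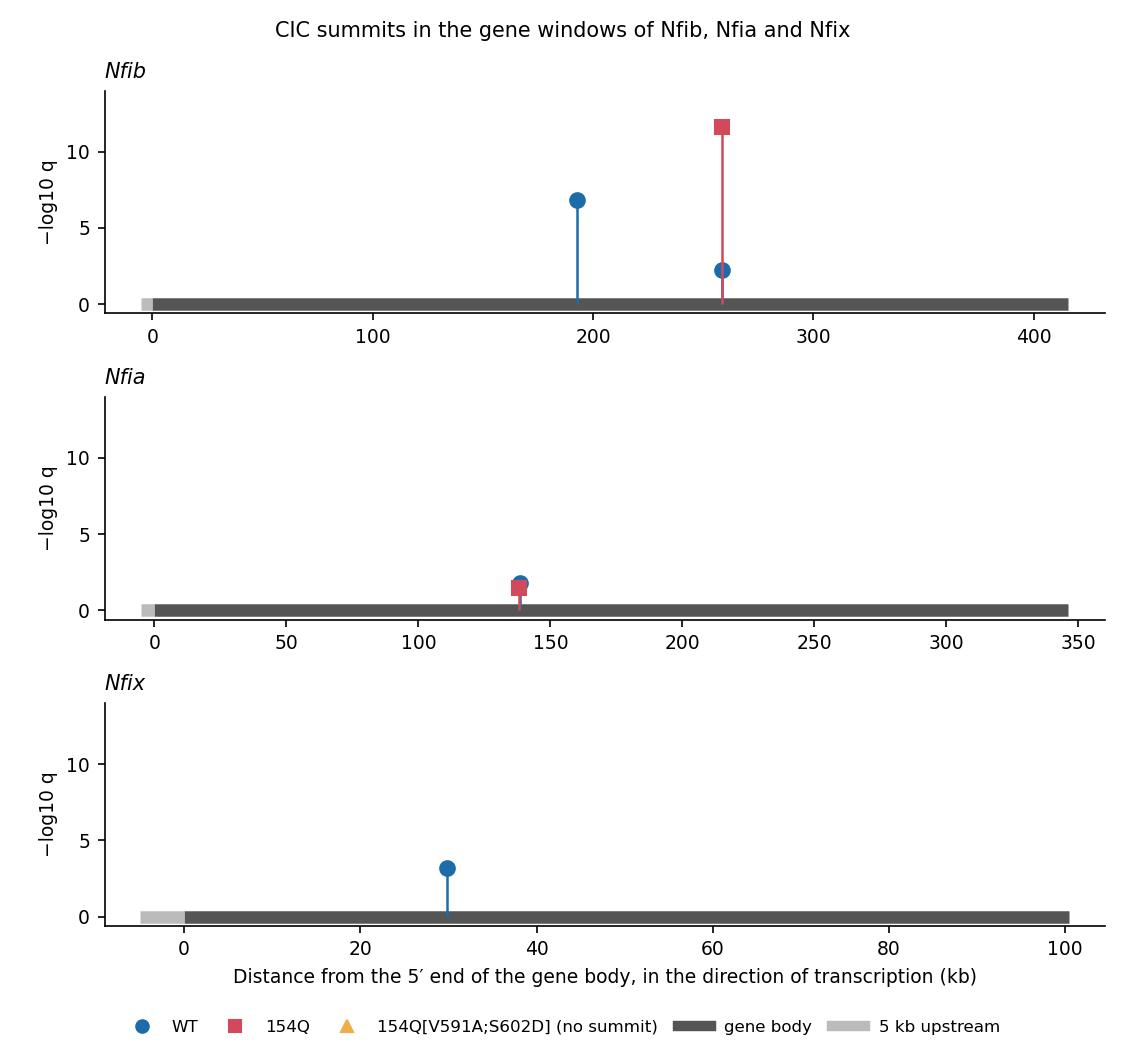
Position of each CIC summit in the gene windows of Nfib, Nfia and Nfix, as distance from the 5′ end of the gene body in kb (x axis), against its −log10 q in its own list (y axis), with circles for WT and squares for 154Q. The 154Q square of Nfib stands at 11.6 above a WT circle at 2.21, the second WT circle of Nfib stands at 6.81, and 154Q[V591A;S602D] has no summit in these genes.

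The nuclear factor I genes were also among the longest of the 38. Nfib, Nfia and Nfix span 416, 346 and 100 kb and rank 1, 2 and 6 by length, whereas the median glial gene spans 15.1 kb and the median protein-coding gene 17.4 kb. Across the genome the share of genes with a peak moved with length. In WT it was 9.63%, 14.9%, 17.9% and 23.0% over 4 classes of rising window length, and in 154Q it was 4.19%, 6.13%, 7.42% and 10.1%. The 10 glial genes in the longest class held the 3 genes with a WT peak and the 2 with a 154Q peak, while the 10, 12 and 6 genes in the shorter classes held 0. Slc1a2 (132 kb), Aldh1l1 (114 kb) and Mbp (110 kb) rank 3, 4 and 5 by length and had no summit in their windows in any list. The part of gene length in the nuclear factor I result was not tested.

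**Figure D3:**
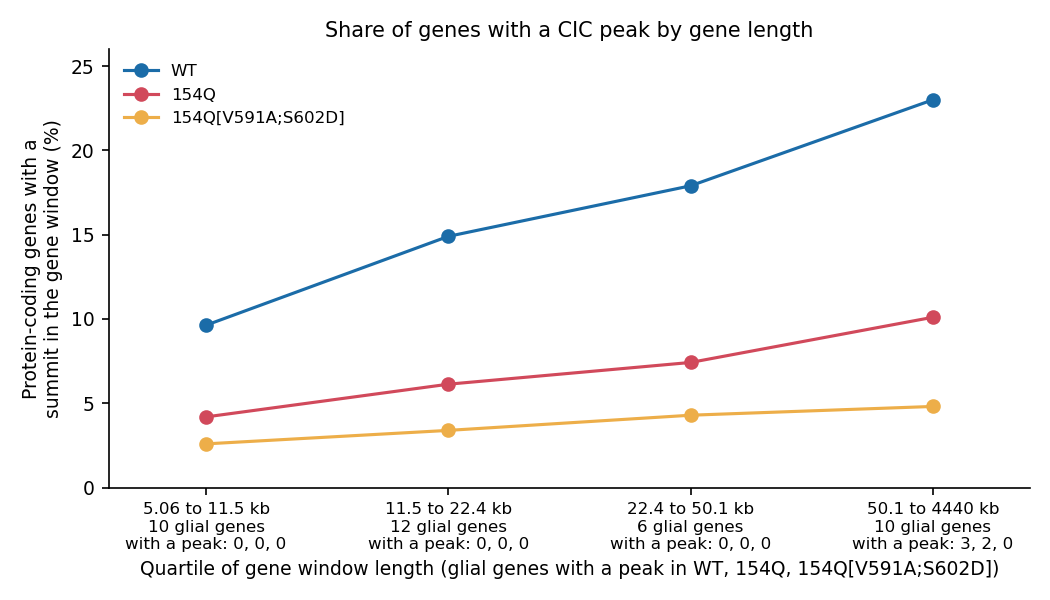
Share of all protein-coding genes with a CIC summit in the gene window (y axis, percent) by class of window length in kb (x axis, 4 classes of near equal gene number), with 1 line per list. Beneath each class stand the number of glial genes and how many of them had a peak in each list, which is 3 for WT, 2 for 154Q and 0 for 154Q[V591A;S602D] in the longest class and 0 in the others.

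The oligodendrocyte lineage genes had a peak in 0 of 8 cases in each list. This allows a share of up to 36.9%, above the share of all genes in every list (16.4%, 6.96% and 3.77%). They comprise Olig1, Olig2, Nkx2-2, Sox8 and Sox10, which specify the lineage, Myrf, which drives myelin gene expression, Pdgfra, the receptor through which progenitors receive growth signals, and Cspg4, the NG2 proteoglycan of progenitors. Measured from the gene's start sites, their nearest WT summits lay between 85.8 kb (Cspg4, at the start of Snupn) and 899 kb (Pdgfra). The summit nearest to Sox10 in WT was 101 kb off, 192 bp from the start of Ankrd54, and had a −log10 q of 13.1. That of Sox8 was 157 kb off, 114 bp from the start of Rpusd1, with a −log10 q of 10.8. The nearest WT summit to both Olig genes was 1 summit at the start of Synj1, 214 kb from Olig2 and 259 kb from Olig1. The summit nearest to Pdgfra lay far from any start site, 57546 bp from that of Rasl11b.

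The myelin genes had a peak in 0 of 7 cases in each list. This allows a share of up to 41.0%, above the shares of all genes (16.4%, 6.96% and 3.77%). A WT summit lay within 50 kb of 4 of the 7 (interval 18.4 to 90.1%), beside 31.5% of all genes. For 154Q it was 1 of the 7, beside 15.6%, and for 154Q[V591A;S602D] 0, beside 9.93%. These are Mbp, which encodes the basic protein that compacts myelin, Mog and Mag, which encode proteins of the myelin surface, Mobp, another myelin basic protein, Cnp, an enzyme of uncompacted myelin, Cldn11, which forms the tight junctions of the sheath, and Ugt8a, which makes galactolipids. Upstream of Mbp the WT list held 1 peak with 4 summits, 20279 to 20632 bp before the nearest start site, which ranked 417 of 4588 with a −log10 q of up to 15.8. The 154Q list had a summit at the same place, 20.3 kb upstream, with a −log10 q of 9.28 and rank 310 of 1690. No start site of another protein-coding gene was closer to these summits than that of Mbp. In 154Q[V591A;S602D] the nearest summit to Mbp was 2220 kb away.

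The other myelin genes with a WT summit within 50 kb were Mog at 24.3 kb, Mag at 45.1 kb and Cnp at 46.8 kb. The start site closest to these summits was that of Gabbr1 for Mog (1116 bp), Usf2 for Mag (3109 bp) and Acly for Cnp (110 bp). Mobp had its nearest WT summit at 125 kb, Ugt8a at 785 kb and Cldn11 at 1360 kb. Cldn11 was closer to a summit in 154Q, at 159 kb, beside Slc7a14.

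The astrocyte and Bergmann glia genes had a peak in 0 of 15 cases in each list. This allows a share of up to 21.8%, again above the share of all genes (16.4%, 6.96% and 3.77%). Within 50 kb, 1 of the 15 had a WT summit, 0 had one in 154Q and 1 had one from 154Q[V591A;S602D] mice, beside 31.5%, 15.6% and 9.93% of all genes. Structural genes among them are Gfap and Vim, which encode intermediate filaments, and Tnc, an extracellular matrix protein. Slc1a2, Slc1a3 and Glul clear and convert glutamate, Aqp4 is the water channel of astrocyte endfeet, and Gja1 and Gjb6 form gap junctions. Aldh1l1, S100b, Fabp7, Hopx, Gdf10 and Apoe mark astrocytes or Bergmann glia, Apoe being the main lipid carrier that astrocytes release. The gene with a summit within 50 kb was Apoe, with a WT summit 32.9 kb and a 154Q[V591A;S602D] summit 33.1 kb from its start site, both beside the start of Clptm1 (289 and 106 bp).

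For the remaining astroglial genes the nearest WT summit lay between 120 kb (Hopx) and 1940 kb (Gja1). Gfap was 131 kb from a WT summit at the start of Nmt1 that had a −log10 q of 18.1. Glul had a summit at much the same distance in each list, 220 kb (WT), 221 kb (154Q) and 219 kb (154Q[V591A;S602D]), all nearest to Rgs8. Slc1a3 was 121 kb from a 154Q summit with a −log10 q of 4.85, to which no other protein-coding gene had a nearer start site, and 305 kb from the nearest WT summit. Slc1a2, the longest of this group, was 367 kb from a WT summit. Fabp7 and Gja1 shared 1 nearest WT summit, at the start of Lims1.

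Over all 38 genes the median distance from a start site to the nearest summit was 217 kb in WT, beside 140 kb for all protein-coding genes. It was 643 kb beside 419 kb in 154Q, and 1340 kb beside 757 kb in 154Q[V591A;S602D]. A summit lay within 100 kb of 9 glial genes for WT (23.7%, beside 43.3% of all genes), of 4 for 154Q (10.5%, beside 23.2%) and of 3 for 154Q[V591A;S602D] (7.89%, beside 15.8%). Within 50 kb the WT count was 8 (21.1%, beside 31.5% of all genes), the 154Q count 2 (5.26%, beside 15.6%) and the 154Q[V591A;S602D] count 1 (2.63%, beside 9.93%). The lists differ in length, with 5998, 2079 and 1100 summits. Single genes did not all follow the medians, and Cldn11, Slc1a3, Gdf10 and Aqp4 (720 against 1430 kb) were nearer to a summit in 154Q than in WT. Cspg4, Fabp7, Gja1 and Mobp were slightly nearer in 154Q. These windows were added after the data had been seen.

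**Figure D4:**
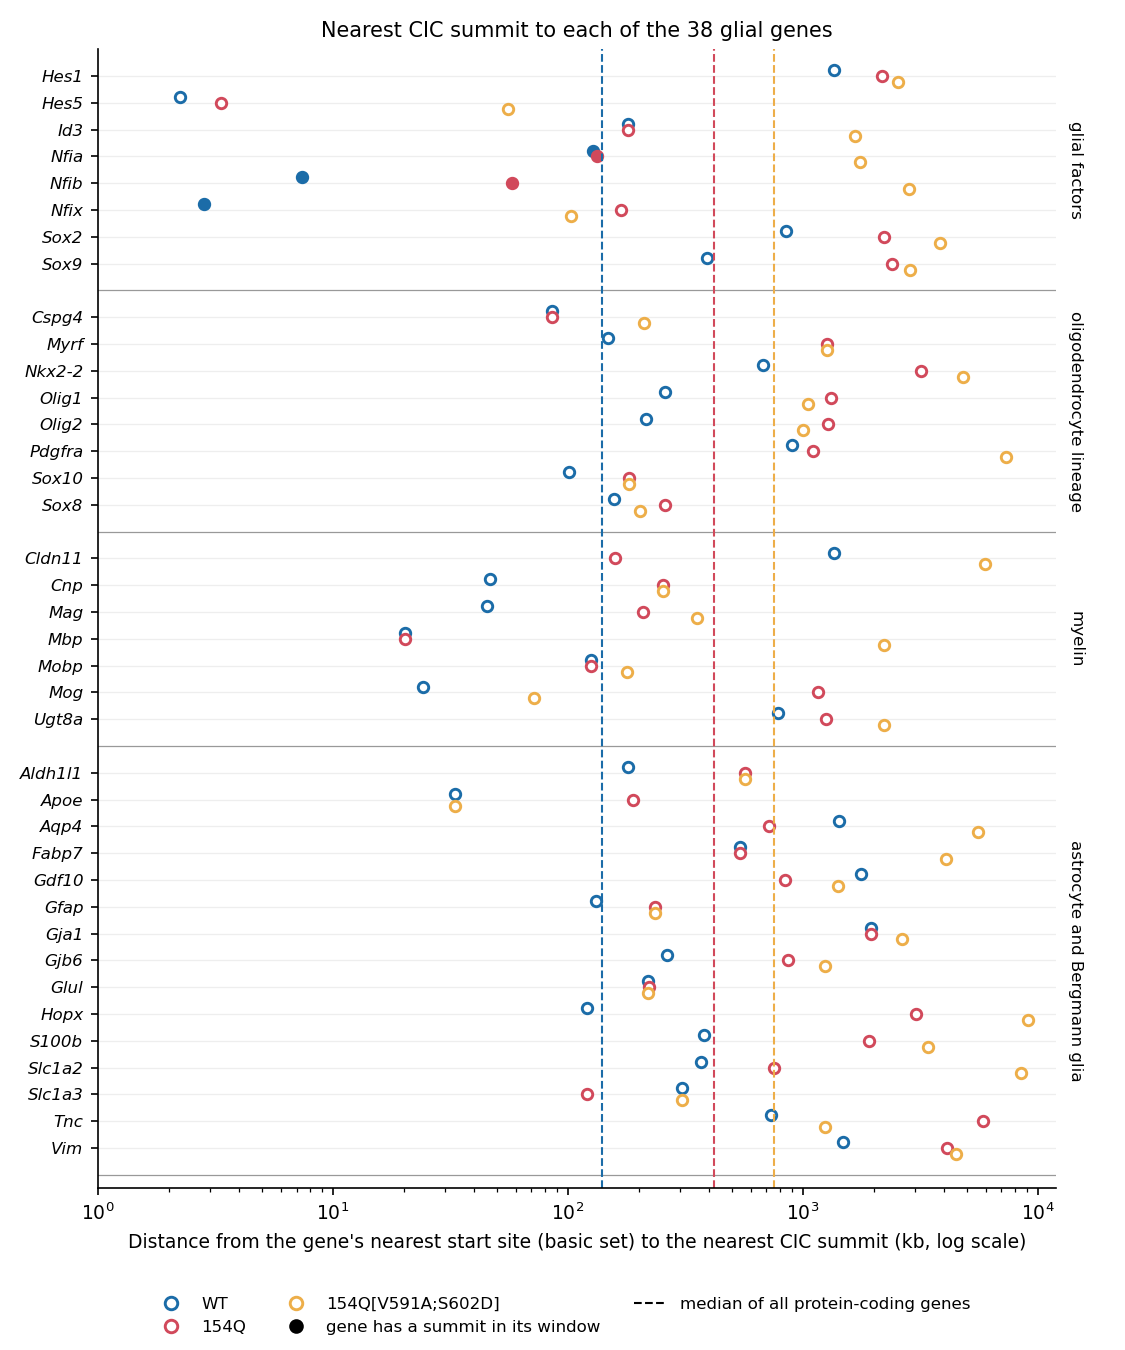
Distance from each glial gene's nearest start site in the basic set to the nearest CIC summit (x axis, kb, log scale), with 1 row per gene grouped by role and 1 colour per list, filled where the gene has a summit in its window. Dashed lines mark the median of all protein-coding genes, at 140, 419 and 757 kb, and Hes5, Nfib and Nfix are the 3 genes within 10 kb of a WT summit.

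The genes just outside the window were Hes5, Nfix with a further summit, Mbp and Mog. Hes5 had WT summits 778 bp and 2.02 kb beyond its 3′ end, with −log10 q of 1.78 and 5.54, and a 154Q summit 1.88 kb beyond it with a −log10 q of 2.02. These summits were nearer to the start site of the neighbouring gene Pank4, at 974, 256 and 121 bp. A second WT summit of Nfix, at position 84809872, lay 4.53 kb beyond the upstream edge of its window and 9528 bp from its nearest start site, with a −log10 q of 3.7. No start site of another protein-coding gene was closer to it. The Mbp summits lay 15.3 to 15.6 kb outside, and the WT summit of Mog 19.3 kb outside.

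The CIC octamer was searched as TGAATGAA, TGAATGGA, TCAATGAA or TCAATGGA on either strand, and no other motif was searched. It lay whole within 50 bp of 0 of the 4 WT and 0 of the 2 154Q member summits. Among all summits in gene windows the share was 2.16% for WT, 5.58% for 154Q and 3.46% for 154Q[V591A;S602D], so that 0 of 4 or 2 is near the background. Nfix came closest, with the TGAATGAA shown in capitals above lying 49 to 56 bp from its summit. Within 100 bp the octamer was near 1 of the 4 WT member summits, that of Nfix, beside 3.89% of all WT summits in gene windows.

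The octamer itself was common around the glial genes. Their windows held 427 copies in 32 of the 38 genes (84.2%), or 208 per Mb, beside 91.0% of all protein-coding genes and 229 per Mb. Of the 427 copies 0 lay within 50 bp of a summit in any list. The windows of all protein-coding genes held 271181 copies. Only 110 WT, 99 154Q and 32 154Q[V591A;S602D] summits in gene windows had the octamer within 50 bp. The 0 of 427 is therefore near the background. In RefSeq promoter sequences (GRCm38.p6, 250 bases before to 50 after the start), which matched 30 of the 38 genes, the octamer was found in Olig2 and Mog, that is 6.67%, beside 4.02% of 16522 protein-coding genes. In Olig2 it lay 159 to 152 bp before the start as the reverse complement TTCATTGA and in Mog 22 to 15 bp before it as TCAATGGA. They are shown on the gene's strand with 10 bases on either side and the octamer in capitals, because the letters are there while the lists used here have no summit. Peak numbers are missing around Olig2 in every list and around Mog in 154Q and 154Q[V591A;S602D], so a removed peak cannot be told apart from no peak there.
Olig2 promoter site: cccggcgggtTTCATTGAgcggaattag
Mog promoter site: accctggtcaTCAATGGAtctgtagtcc

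Peaks could have been removed from the lists before they were read here, and the peak numbers, which run along each chromosome, show where. No number was missing between the peaks on either side of the gene window for 31 of the 38 genes in WT, for 23 in the 154Q list and for 24 in that of 154Q[V591A;S602D]. For the others at least 1 number was missing somewhere between the flanking peaks, or, for Slc1a3 in 154Q[V591A;S602D], the gene lay before the first peak of its chromosome. In WT these were Apoe, Cldn11, Hopx, Mbp, Olig1, Olig2 and S100b. In 154Q they were Aldh1l1, Apoe, Gjb6, Hopx, Id3, Mobp, Mog, Nfib, Olig1, Olig2, Pdgfra, S100b, Sox2, Tnc and Vim. In 154Q[V591A;S602D] numbers were missing around Apoe, Aqp4, Cldn11, Fabp7, Gja1, Hopx, Id3, Mog, Olig1, Olig2, Pdgfra, Slc1a2 and Sox2. For these genes a peak that was removed cannot be told apart from no peak. Nfib has a listed peak in 154Q, so for Nfib this bears on a further peak only.

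Other cerebellar gene lists gave the following counts in the same windows, in which 16.4% of all genes had a WT peak, 6.96% one in 154Q and 3.77% one in 154Q[V591A;S602D]. Of 45 further glial genes that are not among the 38, 1 had a peak in each list, and it was Zbtb20, which encodes a zinc finger repressor active in astrocytes. Its strongest WT summit had a −log10 q of 28.9 and lay 265 bp from the 5′ end of the gene, where a transcript outside the basic set starts, and 32.0 kb upstream of the nearest start site of the basic set. The summits of 154Q (15.1) and 154Q[V591A;S602D] (4.2) lay 257 and 268 bp from the same 5′ end. Of 18 granule cell genes, 11 had a peak in the WT list, 5 in 154Q and 4 in 154Q[V591A;S602D]. For 19 Purkinje cell genes the counts in this order were 1, 0 and 1, and for 20 genes of microglia and vessels they were 3, 1 and 1. Within 1 kb of a start site a WT summit was found for 6 of the 18 granule cell genes and for 0 of the glial, Purkinje, and microglia and vessel genes, beside 11.7% of all genes. Over the start sites of all annotated transcripts, Nfia and Zbtb20 also had one. These lists were small and were not tested against each other.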

How the data were processed

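CUT&RUN for CIC was carried out by the authors on cerebellar nuclei. Per the methods and labels, reads were trimmed (Trimmomatic 0.36), aligned to mm10 (Bowtie2 2.3.4.1) and handled with SAMtools 1.10 and bedtools 2.29.1, fragments under 120 bp were kept, and blacklisted regions were removed. The authors merged the replicates of each genotype and called peaks with MACS3 against merged CIC KO at a q-value of 0.05. Of the deposited lists, those of WT and 154Q[V591A;S602D] give intervals, a fold enrichment (a ratio to the control), a −log10 p-value and a −log10 q-value. The deposited 154Q list gives 1-bp summits with a −log10 q-value, after repeat peaks had been removed. The labels attach the name of the WT list to the CIC KO samples, and it was read as WT called against CIC KO. The fold changes, p- and q-values are therefore the authors' own peak calls, used here to place and rank peaks.

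Every deposited summit on chromosomes 1 to 19, X and Y was set against GENCODE M21 basic genes (GRCm38) with Python 3.11.15, pandas 2.3.3 and pysam 0.24.0. Peaks were ranked by their highest −log10 q. The number of fragments at each summit was recovered by matching its fold enrichment and −log10 p to a Poisson tail, within 0.002, for 99.9% of WT and 99.7% of 154Q[V591A;S602D] summits. Exact 95% intervals used scipy 1.17.1 and cover counting error only. Per the methods, the libraries had 1 nominal sequencing depth, and the number of short fragments behind each merged list is not given in the lists. All 38 genes are named, with full values for those with a summit in the window. The genes, the comparison lists and the windows were chosen with earlier results of these data known. The peak assignment was tested on simulated data. The 30 H3K27ac and IgG samples and single-animal signal were not analysed here. Alternatives were other windows, q thresholds, repeat and summit rules, equal list lengths and a wider octamer search.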

Additional observations from a re-analysis of the deposited data

How the results depend on the processing

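No paired analysis was possible because the lists used here were called on merged replicates, and leaving out single animals, whose own signal was not analysed here, was not run. The counts of glial genes (3 for WT, 2 for 154Q, 0 for 154Q[V591A;S602D]) were unchanged with the highest summit of each peak alone, with the gene body alone, with 10 kb upstream and with each summit given to its nearest start site. Removing repeat peaks, which bears on WT and 154Q[V591A;S602D] alone because the 154Q list was filtered before deposit, changed neither count. Overlap of any base of the peak interval gave 3 and 0 again where it could be run, which excludes 154Q, whose list has no intervals. In the same order the background shares were 9.45%, 3.88% and 2.02% for the gene body alone, where the 5.26% of glial genes in 154Q came to lie above the share of all genes, 17.6%, 7.59% and 4.18% with 10 kb upstream, and 13.4%, 5.57% and 3.04% by nearest start site. A −log10 q above 2 gave 13.4%, 5.47% and 2.69%, and above 3 it gave 11.2%, 4.45% and 1.93%. Nfia lay under both thresholds, which left 2 genes in WT and 1 in 154Q. With 918 top-ranked peaks from every list, 0 genes remained in WT (4.36% of all genes) and 1, Nfib, in 154Q (4.22%). The 1 kb window gave 0 in WT and 0 in 154Q (11.7%, 4.88% and 2.82% of all genes), and over the start sites of all annotated transcripts, tried after the data were seen, it gave 1 in WT and 1 in 154Q, Nfia (12.5%, 5.17% and 2.97%). Without the 3 nuclear factor I genes the count was 0 for WT and for 154Q, and within 50 kb of a start site the counts were 8, 2 and 1 (31.5%, 15.6% and 9.93% of all genes), both chosen after the data were seen. An octamer window of 100 bp gave 1 gene in WT and background shares of 3.89%, 8.39% and 5.4%. The cause of the other shifts was not tested, and fewer peaks or shorter windows by construction call fewer genes.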

Other observations

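The remaining nuclear factor I gene, Nfic, is not among the 38 glial genes and was looked at after its values had been seen. The WT list held 5 summits in its gene body outside basic exons, at 1.46 to 19.6 kb downstream of its nearest start site in the basic set. Over all annotated transcripts the nearest start site was 161 bp to 9.19 kb away, with summits on either side. The 5 summits had −log10 q between 2.88 and 4.23. Of these, 2 lay nearer to the start site of Smim24 in the basic set (13853 and 16466 bp), and 1 of them was in a peak with 65.3% repeat-masked bases. The other lists held 0. Beneath each of these 5 summits 24 or 25 fragments lay over a background of 6.59 to 7.93, close to the 23 fragments at Nfix, and 0 of the 5 had the octamer within 100 bp.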
